A study of Homo sapiens with 18 samples.

Results

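Naloxone, an antagonist of opioid receptors, was set against water in neuron-like SH-SY5Y cells, and the question was which transcripts differ when the antagonist is given with no agonist. The 6 libraries of this comparison, 3 Naloxone and 3 Control, were chosen by their labelled treatment and are 6 of the 18 libraries of the study. The other 12 libraries came from cells given Morphine, Metamorphine, TRV130 or Beta-Endorphin. SH-SY5Y, a line long grown from a human neuroblastoma, is labelled wild type, and every library comes from it.

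All libraries, Control included, came from cells kept for 7 days in 10 µM all-trans retinoic acid, which drives the line towards a neuron-like state. Naloxone was given alone at 200 nM for 15 min, and Control cells received water for 15 min. Library names carry 1 of 3 codes, called A, B and C here, and each code holds 1 Naloxone and 1 Control library, which form a pair. Libraries 1, 2 and 3 of both groups belong to pairs A, B and C in that order, and values are listed in it. The labels do not state whether these libraries are separate cultures. P-values therefore speak of the variation among libraries, which may be technical.

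Opioid receptors are receptors coupled to inhibitory Gi/o proteins. When an agonist binds, the Gi/o proteins slow the adenylyl cyclases that make cAMP, open inwardly rectifying potassium channels and hold back voltage-gated calcium channels. Naloxone occupies the same binding site without starting this signal, and competes most strongly at the mu receptor, OPRM1. Early response genes such as FOS and EGR1 are the transcripts that change soonest after a receptor signal. A time of 15 min is early even for these, because a change in mRNA needs transcription or decay to have taken place.

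The total counts were 29350510, 25343902 and 28732373 in the Naloxone libraries, against 25465814, 22455473 and 24126549 in the Control libraries. Of 58735 annotated genes, 23231 had enough reads to be tested. The noradrenergic neuroblastoma markers were present in full: all 12 had at least 1 CPM (counts scaled to the library total), and their summed level was 6081 to 7331 CPM in Naloxone and 5998 to 6873 CPM in Control. The library Control 1 stood apart. It had 20888 reads in 3647 protein-coding genes whose median over the 18 libraries was 0, here called silent genes, against 277 to 3074 in the 5 other libraries compared. Naloxone 1, of the same code, had the next highest number among all 18 libraries, and Naloxone 2 the third highest with 1495. Results are therefore given by pair and in part without Control 1. Of the 105 genes named for the tests, 49 had a log2 fold change smaller by over 1.5 times without Control 1, 2 larger (FOS and OPRD1) and 4 of the other sign (CACNA1A, EGR1, OPRM1 and TRIM56).

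**Figure D1:**
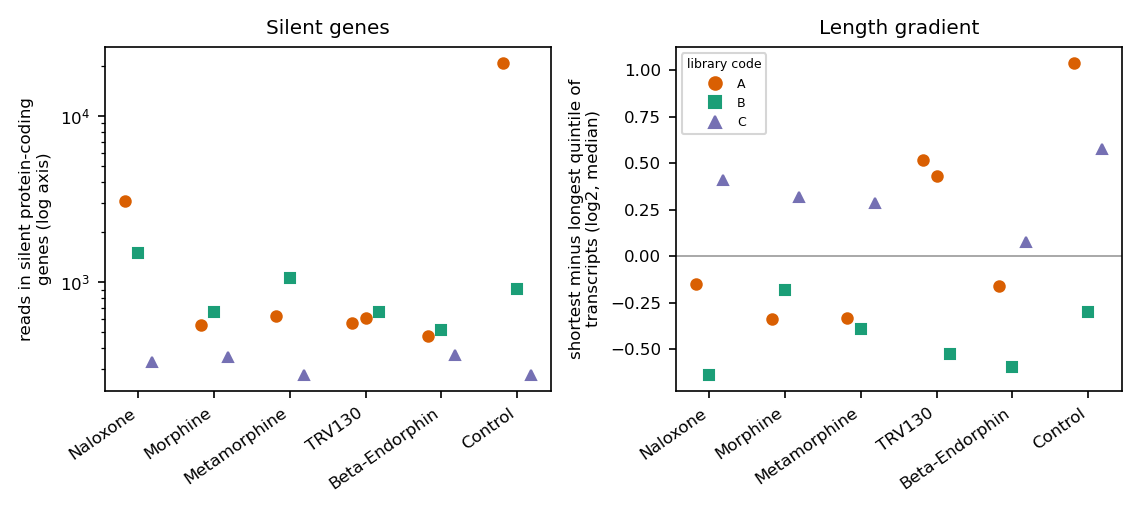
Left, reads in 3647 silent protein-coding genes (log axis) for each of the 18 libraries, and right, the median log2 level of the shortest quintile of protein-coding transcripts minus that of the longest quintile, each relative to the mean over all libraries. Each point is 1 library and its colour and shape give the library code; Control 1 is highest in both panels, at 20888 reads and 1.04.

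No gene passed the test between Naloxone and Control. By the quasi-likelihood test of edgeR, adjusted by Benjamini-Hochberg, 0 of 23231 genes (0%) had an adjusted p under 0.05, and the smallest adjusted p was 0.65. At an unadjusted p under 0.05, 541 genes (2.33%) were higher and 1004 (4.32%) lower in Naloxone. With the library code as a block, 0 genes passed again, while the unadjusted counts were 2217 higher (9.54%) and 3017 lower (13%), and the smallest adjusted p was 0.19. In simulated counts whose spread followed the library code, the test without the block recovered 15% of genes changed 2-fold and 72% of those changed 4-fold, and the test with it 44% and 85%, with 0 and 5 false calls. Where the simulated spread did not follow the code, the test without the block recovered 13% and 76%. The test with it recovered 12% and 73%, and each test had 6 false calls. Each simulation was 1 draw and held no library set apart as Control 1 is, so recovery in the real libraries may differ. At the median, the 95% interval of a gene with at least 10 CPM reached 0.50 to each side on the log2 scale. In what follows every value is therefore a measured difference that did not pass the adjusted test.

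DESeq2, the other count test, called 2 genes (0.00861%), both lower and both pseudogenes. The processed pseudogene ENSG00000226396 had 17, 10 and 22 reads in Naloxone, against 67, 36 and 52 reads in Control. Its log2 fold change by DESeq2 was -2.02, with an adjusted p of 0.021. HCG4, an HLA pseudogene, had 0 reads in each Naloxone library, against 0, 76 and 141 reads in Control, so 1 Control library was at 0 as well. Reads of pseudogenes can be shared with their parent or sister genes.

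The direction of the differences was nonetheless partly shared by the pairs. Naloxone was above Control in all 3 pairs for 5166 genes (22.2%) and below it in all 3 for 6122 (26.4%). In pairs B and C, which leave Control 1 out, 6374 genes (27.4%) were higher in both and 8082 (34.8%) lower in both. The 3 pairs share no library. Across 11984 genes averaging 10 CPM or more, the Spearman correlation of the log2 differences was 0.69 between pairs A and B, 0.54 between A and C, and 0.51 between B and C, which describes these libraries and is no test, since genes of one library share its preparation. Over all 23231 tested genes the same correlations were 0.42, 0.38 and 0.26. Pair A spread most. Over all tested genes the SD of the log2 differences was 1.04 in pair A, against 0.55 in pair B and 0.48 in pair C. Over the 11984 genes it was 0.70, 0.29 and 0.21.

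Large shared differences were few and lay mostly in genes with few reads. At least 0.5 log2 higher in all 3 pairs were 290 genes (1.25%), and at least 0.5 lower in all 3 were 508 (2.19%). The median level of the first was 1.08 CPM and of the second 0.78 CPM, against 11.1 CPM over all tested genes. Protein-coding genes made up 24.5% of the 290 and 37.0% of the 508, against 64.4% of all tested genes, and long noncoding genes 47.9% and 39.8%, against 23.7%. Every Naloxone library was above every Control library for 1009 genes (4.34%), and every one below for 813 (3.50%).

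The most regular difference concerned what kind of transcript a gene makes. Among 13802 protein-coding genes with at least 1 CPM, long transcripts poor in G and C tended to stand higher in Naloxone, and short transcripts rich in G and C lower. A set of 6 genes, picked as examples and not by a rule, shows the contrast in whole transcripts. CNTN1, MAGT1 and TXNDC16 are among the higher genes and OSGIN1, RPL36 and ATP5F1D among the lower ones. For each, the middle 120 bases of the coding sequence of its longest protein-coding transcript (GENCODE 29, GRCh38) are printed, with G and C in capitals.

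CNTN1: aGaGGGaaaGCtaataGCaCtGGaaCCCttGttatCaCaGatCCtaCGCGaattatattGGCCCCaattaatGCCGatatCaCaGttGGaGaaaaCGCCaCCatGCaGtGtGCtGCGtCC
MAGT1: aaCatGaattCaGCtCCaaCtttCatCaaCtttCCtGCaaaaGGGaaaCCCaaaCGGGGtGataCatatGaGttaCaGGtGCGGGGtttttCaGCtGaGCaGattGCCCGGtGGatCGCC
TXNDC16: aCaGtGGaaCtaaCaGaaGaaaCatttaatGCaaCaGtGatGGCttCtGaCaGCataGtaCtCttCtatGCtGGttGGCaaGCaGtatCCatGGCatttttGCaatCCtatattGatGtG
OSGIN1: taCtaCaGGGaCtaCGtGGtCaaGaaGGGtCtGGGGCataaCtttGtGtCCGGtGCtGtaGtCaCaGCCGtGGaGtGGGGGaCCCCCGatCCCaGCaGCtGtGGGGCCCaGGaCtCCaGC
RPL36: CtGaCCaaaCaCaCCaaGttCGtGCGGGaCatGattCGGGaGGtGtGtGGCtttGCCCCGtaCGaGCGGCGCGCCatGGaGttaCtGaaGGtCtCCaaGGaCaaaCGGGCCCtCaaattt
ATP5F1D: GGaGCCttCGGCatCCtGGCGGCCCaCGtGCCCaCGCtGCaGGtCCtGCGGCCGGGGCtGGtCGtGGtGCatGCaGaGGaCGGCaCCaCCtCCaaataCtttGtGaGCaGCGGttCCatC

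The whole transcripts were 5557, 4047 and 4564 bases long with 38.3%, 40.8% and 37.8% GC for CNTN1 (chromosome 12), MAGT1 (X) and TXNDC16 (14). They were 2391, 874 and 997 bases long with 63.4%, 64.6% and 69.6% GC for OSGIN1 (16), RPL36 (19) and ATP5F1D (19). The printed stretches held 47.5%, 48.3% and 40.0% GC in the first 3 genes, and 61.7%, 56.7% and 66.7% in the last 3. The median GC of whole transcripts over all tested genes was 49.3%, and the CNTN1 and MAGT1 stretches lay close to it.

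Over the 13802 genes, the Spearman correlation of the log2 fold change with transcript length was 0.56, and within pairs it was 0.58 in A, 0.43 in B and 0.26 in C. With GC content it was -0.46, and within pairs -0.38, -0.48 and -0.30. The quintile with the shortest transcripts had a median log2 fold change of -0.33, and 6.34% of its genes were higher and 57.4% lower in all 3 pairs. The quintile with the longest transcripts had a median of 0.25, with 49.0% higher and 6.28% lower in all 3 pairs. The GC-richest quintile had a median of -0.26 and the GC-poorest 0.18. Mean expression showed no such relation, with a correlation of 0.02.

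**Figure D2:**
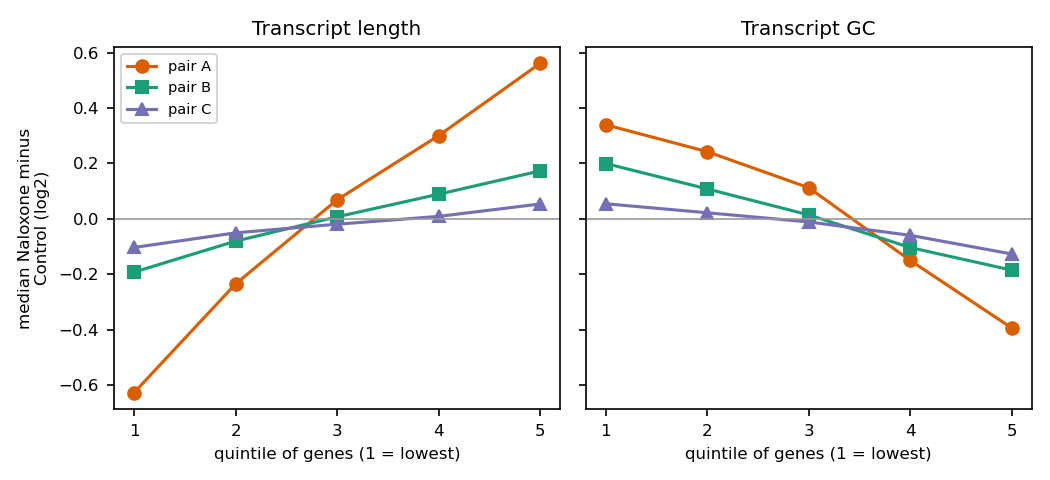
Median log2 difference, Naloxone minus Control, in quintiles of 13802 protein-coding genes ordered by the length (left) or GC content (right) of the longest transcript, with 1 line per pair. In each pair the medians climb with length and fall with GC content, most steeply in pair A.

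The same quantity can be read in each library. The median log2 level of the shortest quintile minus that of the longest quintile was -0.15, -0.64 and 0.41 in Naloxone, against 1.04, -0.30 and 0.58 in Control. The groups overlapped, while within each pair Naloxone was the lower, by 1.19 in A, 0.34 in B and 0.17 in C. An exact paired permutation test gave p = 0.25, two-sided, the smallest that 3 pairs allow. Control 1 and Control 3 were above every other library of their code, while Control 2 was above 4 of the 5 others of code B and below Morphine 2, at -0.18. A correction for transcript length and GC content, added after these data were seen, left 0 genes passing and 4531 genes higher and 5436 lower in all 3 pairs. Reads in silent genes were lower in Naloxone in pair A (3074 against 20888) but not in pairs B (1495 against 906) and C (331 against 277), and their part in the length and GC differences was not tested.

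On the higher side, the protein-coding genes with the smallest p were taken among those with at least 1 CPM and one direction in all 3 pairs. ITGA6 (integrin alpha 6, a laminin receptor subunit) had 2.87, 3.18 and 3.18 CPM in Naloxone, against 0.81, 1.28 and 1.73 CPM in Control. Its log2 fold change was 1.26 ± 0.29 (SE, n = 3 each), with an edgeR adjusted p of 0.65. Exons of 3 antisense genes overlap ITGA6, and without strand information their reads cannot be told apart from its own. CNTN1, the neuronal adhesion protein contactin 1, had 10.9, 11.1 and 11.3 CPM in Naloxone, against 4.78, 6.99 and 6.83 CPM in Control. The Naloxone libraries of both genes lay close together and above every Control library, and both stayed higher without Control 1, by 1.03 and 0.69 log2.

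LRP12, a member of the LDL receptor family, had 26.6, 29.4 and 33.5 CPM in Naloxone, against 15.6, 19.3 and 22.4 CPM in Control. F2R, the thrombin receptor PAR1, had 26.5, 21.2 and 20.3 CPM in Naloxone, against 9.52, 15.8 and 16.1 CPM in Control. PTPRR, a receptor-type tyrosine phosphatase that acts on MAP kinases, had 7.30, 6.14 and 7.57 CPM in Naloxone, against 4.02, 3.19 and 5.45 CPM in Control. In these 3 genes too no Naloxone library overlapped a Control library. Their log2 fold changes were 0.64, 0.71 and 0.73.

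The other 5 genes of this set had log2 fold changes between 0.50 and 0.69. MAGT1, which has a part in N-glycosylation and magnesium transport, had 36.4, 33.2 and 37.8 CPM in Naloxone, against 23.2, 23.6 and 28.5 CPM in Control. ELOVL5, an elongase of polyunsaturated fatty acids, had 108, 91.6 and 89.6 CPM in Naloxone, against 49.2, 68.8 and 78.6 CPM in Control. TRDMT1, an RNA cytosine methyltransferase, stood 0.69 higher, the zinc finger gene ZNF322 0.69 and the phosphatase BPNT2 0.50. All 10 genes had every Naloxone library above every Control library, a condition partly set by the way they were picked.

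The fit with the library code added ALG10, TXNDC16, FAM234B, BVES and SEMA3C to the higher set. ALG10, a glucosyltransferase of N-glycan assembly, had 3.87, 4.93 and 3.77 CPM in Naloxone, against 1.94, 3.19 and 1.86 CPM in Control. TXNDC16, with a thioredoxin domain, had 26.3, 29.3 and 30.3 CPM in Naloxone, against 13, 21.3 and 21.3 CPM in Control. SEMA3C, a secreted axon guidance cue, had 41.5, 57.8 and 58.0 CPM in Naloxone, against 23.4, 46.0 and 43.0 CPM in Control, and its groups overlapped. FAM234B and BVES stood 0.83 and 0.53 log2 higher with the block. The 15 genes of the higher sets had transcripts of 3081 to 7199 bases and 36.0% to 47.1% GC. Among them PTPRR, F2R, ALG10 and BVES, like ITGA6, overlap antisense genes, so their levels are uncertain in the same way.

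**Figure D3:**
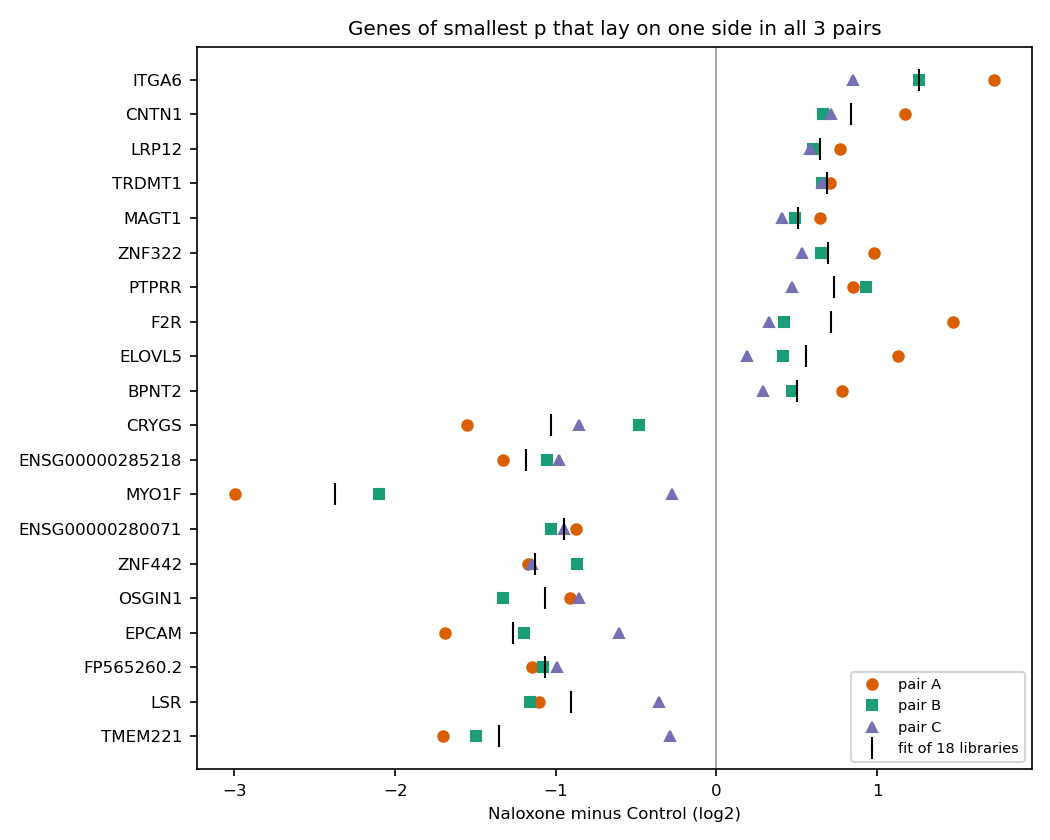
Log2 difference, Naloxone minus Control, in each of the 3 pairs (coloured points) and in the fit of 18 libraries (black bar) for the 10 protein-coding genes of smallest p in each direction. ITGA6 leads the higher genes at 1.26 and MYO1F has the lowest value, -2.37, with pair C near 0.

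On the lower side the leading genes were mostly low in level. CRYGS, the lens protein gamma-S crystallin, had 3.47, 3.91 and 3.66 CPM in Naloxone, against 10.3, 5.49 and 6.70 CPM in Control, a log2 fold change of -1.03 ± 0.27 (SE, n = 3 each). OSGIN1, an oxidative stress response gene, had 1.60, 1.17 and 1.26 CPM in Naloxone, against 3.07, 3.05 and 2.34 CPM in Control. ZNF442, a zinc finger gene, had 0.90, 0.84 and 0.84 CPM in Naloxone, against 2.12, 1.59 and 1.95 CPM in Control. Each had all Naloxone libraries below all Control libraries. ZNF442 went against the length and GC relation, since its transcript of 6219 bases with 41.7% GC is long and GC-poor.

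EPCAM, an epithelial adhesion protein, had 1.97, 2.12 and 1.85 CPM in Naloxone, against 6.5, 4.96 and 2.85 CPM in Control, and LSR, a tricellular junction protein, had 3.23, 3.03 and 3.66 CPM in Naloxone, against 7.04, 6.86 and 4.71 CPM in Control. MYO1F, a myosin known from leukocytes, had 0.90, 0.99 and 0.59 CPM in Naloxone, against 7.72, 4.47 and 0.74 CPM in Control. Control 3 thus lay near the Naloxone libraries for MYO1F, and its log2 fold change of -2.37 was -1.64 without Control 1. TMEM221 had the same shape, with 1.27, 0.88 and 1.05 CPM in Naloxone, against 4.29, 2.61 and 1.30 CPM in Control.

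ENSG00000280071 and FP565260.2, whose annotated positions overlap on the same strand of chromosome 21, stood at -0.95 and -1.07 log2. Reads may be split between them, so they may stand for the same locus and not for separate genes. ENSG00000280071 had 19.1, 13.3 and 25.6 CPM in Naloxone, against 35.2, 27.2 and 49.6 CPM in Control. The differences within pairs were close to each other, at -0.87 in A, -1.03 in B and -0.95 in C, and the fold change was -0.99 without Control 1. ENSG00000285218, which overlaps other genes on chromosome 3, stood at -1.19.

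With the library code as a block, ZNF414, TTYH1, NRGN, MAD1L1 and AATF joined the lower set. NRGN, the calmodulin-binding protein neurogranin, had 13.1, 9.79 and 16.3 CPM in Naloxone, against 34.7, 13.8 and 22.8 CPM in Control. MAD1L1, a spindle checkpoint protein, had 60.9, 45.2 and 42.4 CPM in Naloxone, against 93.6, 70.6 and 56.1 CPM in Control. The zinc finger gene ZNF414 stood at -0.76, the chloride channel gene TTYH1 at -1.55 and AATF, a nucleolar factor, at -0.42 in the blocked fit. The groups overlapped for each of these except ZNF414. Of the lower genes, MYO1F, TTYH1, NRGN and ENSG00000285218 overlap antisense genes, whose reads cannot be told apart from theirs.

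For the mu and delta receptors the library codes lay further apart than the treatments. OPRM1, the mu receptor, had 10.7, 15.9 and 5.37 CPM in Naloxone, against 5.78, 19.3 and 4.93 CPM in Control. OPRD1, the delta receptor, had 75.5, 119 and 54.8 CPM in Naloxone, against 67.1, 185 and 43.6 CPM in Control. In both genes code B was highest in each group, and Naloxone was above Control in pairs A and C and below it in B. Their log2 fold changes of 0.09 ± 0.57 and -0.25 ± 0.51 (SE, n = 3 each) were smaller than their errors, and OPRM1 turned to -0.18 without Control 1.

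OPRL1, the nociceptin receptor, had 16.5, 16.9 and 18.1 CPM in Naloxone, against 13.6, 15.9 and 17.6 CPM in Control. OPRK1, the kappa receptor, had 4, 2 and 0 reads in Naloxone, against 7, 0 and 0 reads in Control, too few to test. OGFR, the receptor of opioid growth factor, which naloxone and its relatives also bind, had 62.3, 58.1 and 55.3 CPM in Naloxone, against 97.5, 69.3 and 69.1 CPM in Control. It was the receptor gene with the smallest unadjusted p, 0.028, and a log2 fold change of -0.43, or -0.24 without Control 1. OGFRL1, a relative of OGFR, stood at 0.37. Of the 6 tested genes of this list, 2 (33.3%) were higher and 2 (33.3%) lower in all 3 pairs. Among all tested genes 22.2% were higher and 26.4% lower.

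**Figure D4:**
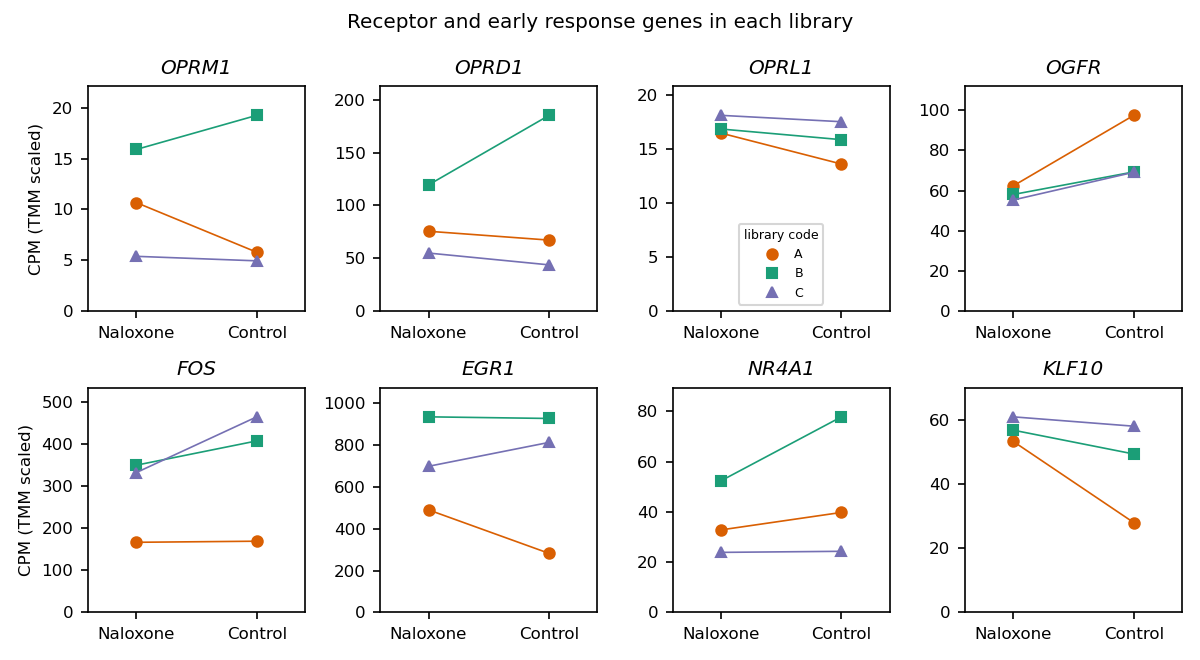
TMM-scaled CPM of 4 receptor and 4 early response genes in each Naloxone and Control library, with a line joining the libraries of 1 pair. For OPRM1, OPRD1, NR4A1 and FOS the library codes lie further apart than the treatments, and for OGFR each line is higher at Control.

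Of the 19 Gi/o subunit genes, 6 were higher and 5 lower in all 3 pairs, with a median log2 fold change of 0.09. GNG12, a gamma subunit, stood at 0.49 and the beta subunit GNB4 at 0.39, while the inhibitory alpha subunit GNAI2 stood at -0.20. Of 24 tested RGS proteins, receptor kinases and arrestins, which end or redirect the receptor signal, 5 were higher and 7 lower in all 3 pairs, with a median of -0.07. Among them RGS3 stood at -0.62 and RGS19 at -0.41. Without Control 1, RGS3 stood at -0.25, GNG12 and GNB4 at 0.22 and GNAI2 at -0.076, and the Gi/o median was -0.01. Higher in all 3 pairs were thus 31.6% of the Gi/o subunits and 20.8% of the regulators, against 22.2% of all tested genes. Lower in all 3 were 26.3% and 29.2%, against 26.4% of all tested genes.

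The cAMP and protein kinase A genes stood higher more often. Of 31 tested, 22 had a fold change above 0, where 46.3% of all tested genes did, 18 (58.1%) were higher and 4 (12.9%) lower in all 3 pairs, and the median was 0.23, against -0.04 for all tested genes. None passed the test. PRKAR2A, a regulatory subunit of protein kinase A, had 31.5, 30.6 and 36.9 CPM in Naloxone, against 17.7, 25.7 and 32.7 CPM in Control. PDE3B, a phosphodiesterase, had 40.5, 51.2 and 39.9 CPM in Naloxone, against 22.2, 39.9 and 33.6 CPM in Control, so that its lowest Naloxone and highest Control library were level. PDE4B stood at 0.29. Without Control 1, PRKAR2A stood at 0.18, PDE3B at 0.26 and PDE4B at 0.17. The list's median was 0.12 without Control 1 and 0.05 after the length and GC correction.

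Ion channel genes gave small lists. Of 12 tested voltage-gated sodium channel genes, 6 (50.0%) were higher and 1 (8.33%) lower in all 3 pairs. Among all tested genes these shares were 22.2% and 26.4%. The sodium channel median was 0.23, and 0.01 after the length and GC correction. SCN3A, a channel subunit of developing neurons, had 39.3, 57.3 and 42.1 CPM in Naloxone, against 17.8, 38.7 and 36.2 CPM in Control. SCN2A stood at 0.36 and SCN7A at 0.91. Without Control 1, SCN3A stood at 0.31, SCN2A at 0.20 and SCN7A at 0.42. For 17 potassium channel genes the counts were 5 higher (29.4%) and 1 lower (5.88%), with a median of 0.08. KCNJ9, an inwardly rectifying channel opened by Gi/o beta-gamma subunits, stood at 0.31 and KCNN3 at 0.56. For 13 calcium channel genes the counts were 1 higher (7.69%) and 3 lower (23.1%), with a median of 0.08. The auxiliary subunit CACNA2D1 stood at 0.46.

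CACNA1A, the pore of the P/Q-type calcium channel, had a direction that rested on 1 library. It had 0.97, 0.55 and 0.035 CPM in Naloxone, against 12.5, 0.044 and 0 CPM in Control. Its log2 fold change was -3.00 with Control 1 and 4.29 without it. The study's title names 4 genes. TRIM56, a ubiquitin ligase of antiviral signalling, had 24, 5 and 6 reads in Naloxone, against 103, 16 and 0 reads in Control. RASAL1, a Ras GTPase activator, had 15, 7 and 0 reads in Naloxone, against 55, 12 and 1 reads in Control. The log2 fold changes of TRIM56 and RASAL1 were -2.14 and -1.99, and 0.18 and -0.17 without Control 1. RASAL1 was lower in each pair, while TRIM56 was higher in pair C.

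CACNA1F, the retinal L-type calcium channel, had 4, 5 and 0 reads in Naloxone, against 119, 4 and 0 reads in Control, and was not tested. GARIN4, a gene known from testis, had 0, 12 and 5 reads in Naloxone, against 9, 25 and 13 reads in Control, lower in each pair, with a log2 fold change of -1.75 and -2.01 without Control 1. In the 12 libraries of the other ligands GARIN4 had 0 to 2 reads. An antisense gene overlaps GARIN4, and reads from it cannot be told apart.

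Early response genes leaned to the lower side. Of 28 tested, 9 stood above and 19 below 0, where 53.7% of all tested genes stood below, and 4 (14.3%) were higher and 11 (39.3%) lower in all 3 pairs, with a median of -0.19. FOS had 167, 350 and 332 CPM in Naloxone, against 169, 408 and 465 CPM in Control, a log2 fold change of -0.30 ± 0.39 (SE, n = 3 each). NR4A1, a nuclear receptor, had 32.8, 52.3 and 23.9 CPM in Naloxone, against 39.8, 77.8 and 24.3 CPM in Control. FOS was nearly equal in pair A and NR4A1 in pair C, and both groups overlapped.

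EGR1, a zinc finger transcription factor, had 490, 934 and 698 CPM in Naloxone, against 282, 926 and 812 CPM in Control, and its log2 fold change was 0.07, or -0.29 without Control 1. JUND, a partner of FOS, had 353, 298 and 496 CPM in Naloxone, against 567, 334 and 685 CPM in Control. KLF2 stood at -0.79 from levels near 1 CPM, and KLF10, which goes the other way, had 53.4, 56.9 and 61.0 CPM in Naloxone, against 28.0, 49.4 and 58.1 CPM in Control. The list's median was -0.27 without Control 1 and -0.09 after the length and GC correction. Of 18 MAP kinase feedback genes, 4 (22.2%) were higher and 3 (16.7%) lower in all 3 pairs, with ETV5 at 0.30 and DUSP4 at 0.31. Among all tested genes these shares were 22.2% and 26.4%.

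Transcripts of the ribosome and of the respiratory chain stood mostly lower. All 79 cytosolic ribosomal protein genes stood below 0, and 66 (83.5%) were lower in all 3 pairs, against 26.4% of all tested genes. Their median was -0.57, and by pair -1.20 in A, -0.38 in B and -0.14 in C. RPL36 had 362, 227 and 567 CPM in Naloxone, against 1058, 316 and 750 CPM in Control, and RPS15 had 591, 374 and 869 CPM in Naloxone, against 1407, 505 and 1046 CPM in Control. The groups of both genes overlapped because the codes differ, while each pair had the Naloxone library lower. The list's median was -0.30 without Control 1 and -0.54 after the length and GC correction. Many ribosomal protein genes have processed pseudogenes that can share their reads.

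Of 48 nuclear genes of the respiratory chain, 34 (70.8%) were lower and 2 (4.17%) higher in all 3 pairs. Among all tested genes these shares were 26.4% and 22.2%. The respiratory chain list had a median of -0.51. ATP5F1D, the delta subunit of ATP synthase, had 82.9, 62.3 and 96.5 CPM in Naloxone, against 199, 78.3 and 131 CPM in Control. NDUFS8, a complex I subunit, had 63.3, 42.9 and 90.2 CPM in Naloxone, against 158, 56.6 and 105 CPM in Control. The list's median was -0.23 without Control 1 and -0.42 after the correction.

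The 13 mRNAs made by the mitochondrial genome stood lower as well, and by similar amounts in the 3 pairs. Of the 13, 10 (76.9%) were lower in all 3 pairs, against 26.4% of all tested genes. The medians of the 13 were -0.45 in A, -0.61 in B and -0.44 in C. The list's median was -0.50 in the fit and -0.36 without Control 1. MT-ND3 had 1293, 1155 and 1001 CPM in Naloxone, against 3035, 1815 and 1327 CPM in Control, with no overlap. Its log2 fold change was -0.84 with an unadjusted p of 0.028 in the edgeR test. Without Control 1 the log2 fold change was -0.45 and the unadjusted edgeR p 0.21. MT-CO2 had 7938, 7751 and 4118 CPM in Naloxone, against 15698, 11941 and 5561 CPM in Control. The mitochondrial share of all counts was 10.1%, 10.8% and 4.66% in Naloxone, against 13.3%, 15.7% and 5.81% in Control. It was lower in each pair, and the exact paired permutation p was 0.25, two-sided, again the smallest possible. In bulk RNA, fewer cells of a kind and less RNA per cell cannot be told apart, and the same holds for fewer mitochondria and fewer transcripts in each.

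**Figure D5:**
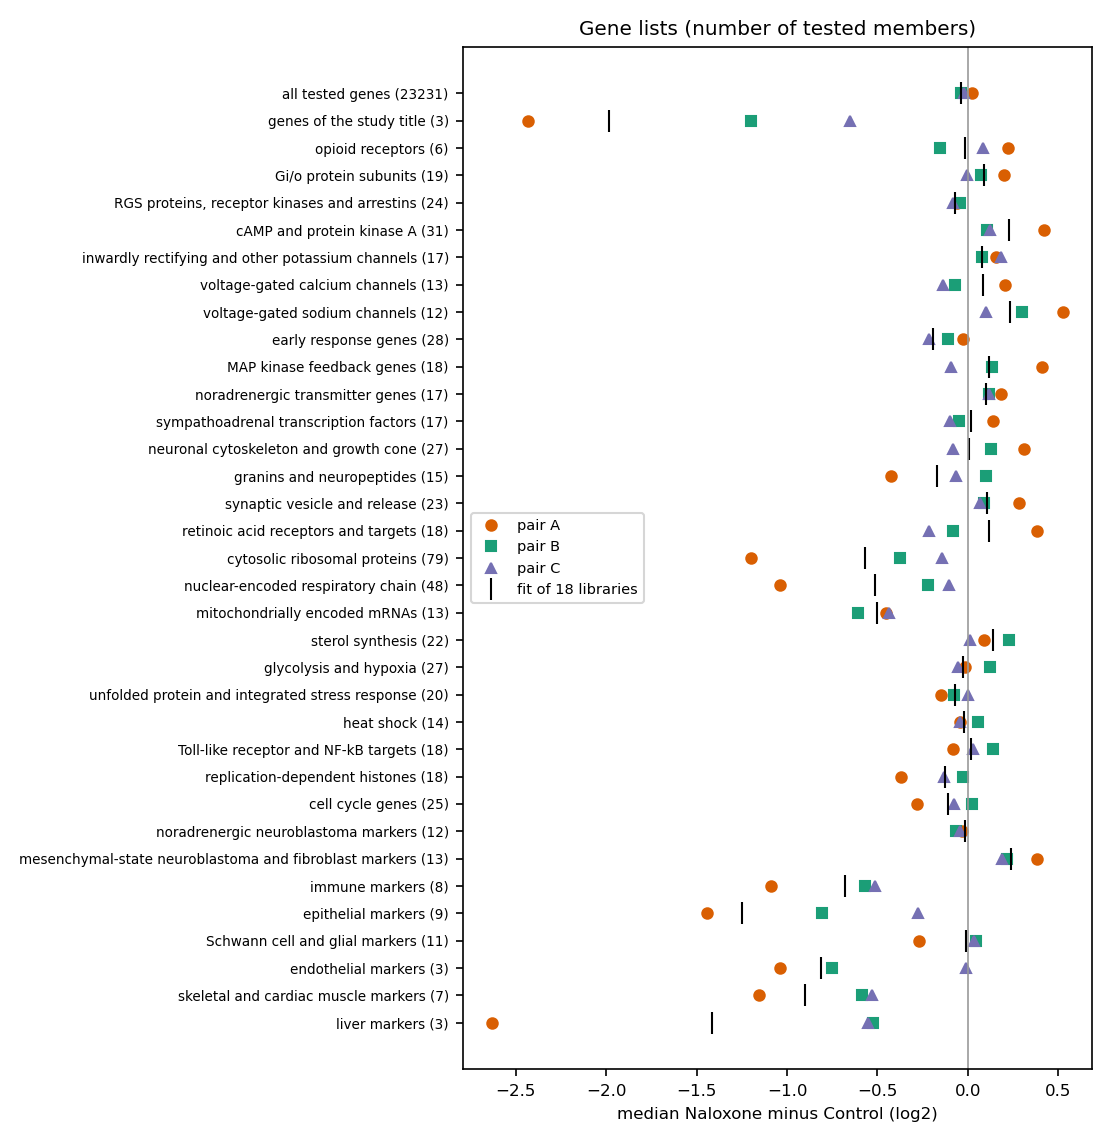
Median log2 difference, Naloxone minus Control, of each gene list in the 3 pairs (coloured points) and in the fit of 18 libraries (black bar), with the number of tested members in brackets. Ribosomal protein, respiratory chain and mitochondrial lists lie left of 0 in every pair, and the lists with the lowest medians hold few genes with few reads.

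Genes of noradrenergic transmission, the transmitter type of this line, stood close to 0 at the median. Of 17 tested, 10 (58.8%) were higher and 4 (23.5%) lower in all 3 pairs, against 22.2% and 26.4% of all tested genes. The list's median was 0.10, and 0.12 after the correction. CHRNA3, a subunit of the ganglionic nicotinic receptor, had 389, 323 and 296 CPM in Naloxone, against 288, 287 and 243 CPM in Control, without overlap. Of 17 sympathoadrenal transcription factors, 2 (11.76%) were higher and 3 (17.65%) lower in all 3 pairs. KLF7 stood at 0.46, GATA3 at -0.26 and PHOX2A at -0.28.

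The synaptic vesicle list had 8 of 23 members higher (34.8%) and 5 lower (21.7%) in all 3 pairs, with a median of 0.11. Among all tested genes these shares were 22.2% and 26.4%. SYT1, the calcium sensor of vesicle release, had 85.3, 94.3 and 91.2 CPM in Naloxone, against 49.3, 65.3 and 81.7 CPM in Control. SYT11 stood at 0.76 and the vesicle GTPase RAB3A at -0.46. The cytoskeleton and growth cone list had 7 of 27 higher (25.9%) and 5 lower (18.5%). The microtubule proteins MAP2 and DCX stood at 0.44 and 0.49. Among 15 granin and neuropeptide genes, 3 (20.0%) were higher and 4 (26.7%) lower, with PCSK1N at -0.54 and NPY at -0.56. Without Control 1, PCSK1N stood at -0.087, NPY at -0.075 and the median of their list at 0.04, against -0.17 with it. RAB3A stood at -0.14, SYT1 at 0.30 and MAP2 at 0.21 without that library.

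Retinoic acid receptors and targets report the differentiation that all libraries share. They had 5 of 18 members higher (27.8%) and 8 lower (44.4%) in all 3 pairs, against 22.2% and 26.4% of all tested genes. Their median had no steady sign. It was 0.12 in the fit, and by pair 0.38 in A, -0.08 in B and -0.21 in C. Without Control 1 it was -0.12, and after the length and GC correction 0.20. CRABP2, a retinoic acid binding protein, had 81.1, 71.6 and 107 CPM in Naloxone, against 139, 98.4 and 141 CPM in Control. RARRES1 stood at -0.71 and DHRS3 at -0.31, while NTRK2, the BDNF receptor that retinoic acid induces in this line, stood at 0.53. Of 22 sterol synthesis genes 7 (31.8%) were higher and 4 (18.2%) lower in all 3 pairs, with SC5D at 0.33 and STARD4 at 0.50.

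The stress lists stayed near 0 at the median. The unfolded protein and integrated stress response list stood at -0.07, with VLDLR at 0.54 and DDIT3 at -0.67. Without Control 1, DDIT3 stood at -0.22 and the list at 0.08. Heat shock genes stood at -0.02, with HSPB1 at -0.67, or -0.40 without Control 1, and the chaperone HSPA8 at 0.39. Glycolysis and hypoxia genes stood at -0.03, cell cycle genes at -0.11, replication-dependent histones at -0.13 and Toll-like receptor and NF-kB targets at 0.02, where TRAF6 stood at 0.45, or 0.25 without Control 1. Naloxone also binds the Toll-like receptor complex in some assays, and 6 of 18 members of that list were higher and 5 lower in all 3 pairs.

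The tested markers of cell types other than neuroblastoma mostly stood lower in Naloxone, except the glial and mesenchymal ones. The summed muscle markers, given below, did not share this direction. Of 20 epithelial markers, 16 were under 1 CPM and KRT20 was at 0 in all 6 libraries. All 9 that could be tested stood below 0, where 53.7% of all tested genes did, with ELF3 at -1.25 and CLDN3 at -1.67. Markers near the read limit could enter the test through Control libraries where they were high, so this count is partly set by the filter. CLDN3 had 1.13, 0.58 and 0.086 CPM in Control, against 0.30, 0.11 and 0.14 CPM in Naloxone. The summed level of the 20 epithelial markers was 9.92 to 21.4 CPM in Naloxone and 11.9 to 36.3 CPM in Control. The summed immune markers were at 12.1 to 17.5 CPM in Naloxone and 14.6 to 33.3 CPM in Control, with 20 of 24 under 1 CPM, CD2 at 0, CD14 at -0.81 and CD68 at -0.68. For the epithelial and immune sums Control 1 was the highest library, and the epithelial median was -0.28 without it, against -1.25 with it. Their part in the results was not tested.

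The endothelial markers summed to 3.62 to 9.71 CPM in Naloxone and 4.64 to 21.2 CPM in Control, with 11 of 12 under 1 CPM and ESAM at -0.88. Liver markers summed to 0.90 to 1.93 CPM in Naloxone and 1.33 to 6.52 CPM in Control, with ALB at 0, TF at -1.42 and NR1I2 at -2.55. Control 1 was highest in both sums, and without it ESAM stood at -0.44, TF at -0.71 and NR1I2 at -1.03. In each of these lists 3 of 12 markers were tested. The filter needs enough reads in more than 1 library, so a marker near the read limit could pass only in part through Control 1. NR1I2 had 1.62 CPM there, 0.40 CPM in Control 2 and 0.38 CPM in Beta-Endorphin 2. Muscle markers summed to 74.8, 88.3 and 62.4 CPM in Naloxone, against 75.7, 73.1 and 61.3 CPM in Control. Their sum was thus lower only in pair A. Of 16 muscle markers, 12 were under 1 CPM and 7 were tested, with CKM at -2.03, or -0.84 without Control 1. Without that library the median of the tested markers was -0.43 for endothelium, against -0.81 with it, -0.71 for liver, against -1.42, and -0.29 for muscle, against -0.90. Schwann cell and glial markers summed to 48.3 to 93.2 CPM in Naloxone and 43.3 to 73.3 CPM in Control, with OLIG2 at 0. Of 11 tested, 4 (36.4%) were higher and 2 (18.2%) lower in all 3 pairs, at a median of -0.01. ERBB3, at -1.63 in the fit, was higher in pair C and stood at -0.49 without Control 1. Mesenchymal-state neuroblastoma and fibroblast markers summed to 806 to 1047 CPM in Naloxone and 683 to 867 CPM in Control. Of the 13 tested, 8 (61.5%) were higher and 2 (15.4%) lower in all 3 pairs. The noradrenergic markers of the line itself had 2 of 12 higher (16.7%) and 4 lower (33.3%), at a median of -0.02. Among all tested genes 22.2% were higher and 26.4% lower in all 3 pairs.

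Naloxone was also set against the mean of the 4 other ligands, Morphine, Metamorphine, TRV130 and Beta-Endorphin, in which no Control library takes part. TRV130 1 and TRV130 2 are both of code A and TRV130 3 is of code B. The TRV130 group thus lacks code C, and the codes are not balanced in this comparison. Again 0 of 23231 genes passed by the same edgeR test and adjustment, with 34 genes (0.146%) higher and 51 (0.220%) lower at an unadjusted p under 0.05. DESeq2 called 1 gene (0.00431%), HCG4 again, as lower in Naloxone. The ribosomal protein median was -0.02 in this comparison and the mitochondrial mRNA median -0.23. The mitochondrial share of counts was 17.7% in TRV130 1 and 15.6% in TRV130 2, above every other library of the 4 ligands. ITGA6 stood at 0.24 ± 0.22 and CNTN1 at 0.12 ± 0.16 (SE), where their values against Control were 1.26 and 0.84.

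Among the genes of smallest p in this second comparison, SMOC1, a secreted matrix protein, stood at 0.28. It had 82.3, 94.6 and 68.8 CPM in Naloxone, against 50.6 to 78.2 CPM in the 12 libraries of the other ligands, and the groups overlapped. XAGE1B, a cancer-testis antigen with near-identical copies on the X chromosome, stood at 3.72, and 1 Naloxone library carried it. It had 17.7, 0.51 and 0.73 CPM in Naloxone, against 0.08 to 0.85 CPM in the 12 libraries of the other ligands. In Control, which takes no part in this comparison, XAGE1B had 0.36, 0.35 and 5.79 CPM. TMEM215 stood at 0.54 with 2.43, 2.74 and 2.83 CPM in Naloxone, and IL13RA1, an interleukin-13 receptor chain, at 0.33. On the lower side GSC, a homeobox factor, stood at -0.64, CCT6B, a chaperonin subunit, at -0.44 and GPR89A, which has near-identical copies, at -0.57. GARIN4 stood at 2.65 with an unadjusted p of 0.0052, from the reads given above.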

How the data were processed

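The deposited table holds raw read counts per Ensembl gene for 18 libraries, not normalized. Per the labels' protocols, TRIzol RNA was treated with DNase I and libraries without strand information were read as 150 bp pairs. FastQC, HISAT2, featureCounts, DESeq2 and GRCh38 (hg38) are named per the submitters' processing notes, with no versions given in the sources used here. All 58735 IDs are in GENCODE 29, and 58207 had a symbol.

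The counts were fitted with edgeR 4.0.16 (R 4.3.3): filterByExpr with a minimum count of 10, TMM scaling, and the robust quasi-likelihood test over 18 libraries with 1 mean per group. P-values are two-sided, adjusted by Benjamini-Hochberg over 23231 genes, with a threshold of 0.05. Pair differences are of log2 CPM with a prior count of 2, and CPM are TMM-scaled. Standard errors come from the F statistic. DESeq2 1.42.0 and limma 3.58.1 served as alternatives, and the scripts were tested on simulated data. The coefficient of variation between libraries was 0.309 without and 0.182 with the code in the model. The replicate numbers follow the codes, which were used to pair the samples. Deviations from the group means correlated at 0.25, 0.73 and 0.70 in the 3 pairs, and at -0.67 to 0.10 across codes. Pair A was thus only weakly set apart. Deviations within a group are tied to each other, so these values are not independent.

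Transcript length and GC content are those of the longest protein-coding transcript in GENCODE 29, or the longest of any kind where a gene has none, and 23215 of the tested genes had them. Named genes were the 10 protein-coding genes per direction with the smallest p, at least 1 CPM and one direction in all 3 pairs, the same with the block, the receptor and title genes, FOS, EGR1 and NR4A1, up to 4 per list, and up to 5 per direction against the 4 other ligands. The text leaves out part of the genes this rule gives. The comparison, the 35 gene lists and the rule were chosen with earlier results of these data known. Intervals cover the spread between libraries, and reads carry no molecular identifiers. Antisense genes also overlap other named genes, among them OPRM1, OPRD1 and NR4A1, and reads without strand information do not separate them.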

Additional observations from a re-analysis of the deposited data

How the results depend on the processing

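The counts of genes past the threshold stayed at 0 in 17 of the 18 alternatives of the Control comparison and in 6 of the 7 of the comparison with the 4 other ligands. The exceptions were DESeq2, with 2 genes lower and 1 gene lower. Pairing the libraries by code, the replicate block, also left 0 genes, and its blocked values changed no call. The count of genes higher and lower in all 3 pairs was 3261 and 3613 among genes with at least 10 CPM, since fewer genes enter. Leaving out Control 2 or Control 3 raised the genes at an unadjusted p under 0.05 to 4212 and 4341, leaving out Control 1 gave 410, and both libraries of code A out gave 257. In the Control comparison the smallest adjusted p of each alternative ran from 1.237e-06 (DESeq2) to 0.9999 (edgeR without both libraries of code A). Of 1884 values of named genes, 1842 kept their direction. Many of these genes were picked for one direction in all 3 pairs, and the alternatives reuse the same libraries. This count was thus partly set in advance. With 1 library left out at a time, values turned for 7 genes, and ran from -0.30 to 0.99 for OPRM1, -0.59 to 0.59 for OPRD1, -0.29 to 0.37 for EGR1, -0.72 to 0.18 for NR4A1, -3.16 to 0.18 for TRIM56, -3.85 to 4.29 for CACNA1A and -1.79 to 4.13 for XAGE1B. Without both libraries of code A OPRM1 stood at -0.18, EGR1 at -0.086, CACNA1A at 3.47 and XAGE1B at -2.30, and without Control 1 but with the block OPRM1 stood at -0.095, EGR1 at -0.22, CACNA1A at 3.96 and TRIM56 at 0.17. Under voom with quality weights and the block OPRM1 stood at -0.072, EGR1 at -0.17, CACNA1A at 2.32 and TRIM56 at 0.84. With the length and GC correction PHOX2A stood at 0.0090 (0.026 with the block) and IL13RA1 at -0.0044 (-0.000361). Leaving out Naloxone 1, Naloxone 2 and Control 1 sets a library of code C against 1 of B and 1 of C, and turned OPRM1 to -1.11, EGR1 to -0.27, SMOC1 to -0.081, JUND to 0.0021, GNAI2 to 0.020, CACNA1A to 0.62, KCNN3 to -0.24, RAB3A to 0.0034, PCSK1N to 0.13, NPY to 0.24, RPL36 to 0.13, RPS15 and NDUFS8 to 0.20, DDIT3 to 0.067, HSPB1 to 0.020 and XAGE1B to -2.03. That setting, voom and the length and GC correction were chosen after seeing the data. Genes under about 10 reads are limited by depth. The cause of the turned values was not tested.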
